A study of Mus musculus with 56 samples.

Results

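The genes described here are 10 components of epithelial tight junctions, namely the claudins Cldn1, Cldn2, Cldn3, Cldn4, Cldn7, Cldn8 and Cldn10, the occludin gene Ocln, and the scaffold genes Tjp1 and Tjp3. They were taken as a named list by symbol, all 10 were found among the 53379 Ensembl genes of the count table, and the rule itself used no measured value, although the list was drawn up with earlier results of these data known. The libraries came from C57BL/6 male mice of 3 months and 21 months with no treatment and no genetic change. The study bought its mice from centres of different universities and does not say which ages came from which. Testis, efferent ductules, initial segment, caput, corpus, cauda and vas deferens were taken from 4 mice of each age, with 1 library for each region of each mouse, so that 56 libraries formed 14 groups of 4. Total RNA of whole dissected tissue was sequenced, so that fewer epithelial cells and less of a transcript in each cell cannot be told apart in any value below.

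Tight junctions join neighbouring epithelial cells below their apical surface and decide which ions, how much water and which molecules pass between them. Claudins form the strands: some seal the gap between cells, whereas others, such as those encoded by Cldn2 and Cldn10, form pores for ions, with water also passing through the Cldn2 pore. Occludin is a further strand protein, and the zonula occludens proteins encoded by Tjp1 and Tjp3 tie strands to the actin cytoskeleton. In the epididymis these junctions make up the blood-epididymis barrier, which keeps the luminal fluid around sperm apart from the blood, and in the testis the barrier lies between Sertoli cells.

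The libraries held 11125279 to 20561967 counts on genes. Levels are given as CPM, a gene's counts relative to all gene counts of its library, scaled by the trimmed mean of M values (TMM), as mean ± SD of 4 libraries, and levels of different genes are compared only after division by exon length (CPM per kb). Of the lists of region markers, most were highest in the labelled region, but 10 libraries stood apart. Replicates 2 and 3 of the 21-month efferent ductules carried the initial segment transcript Lcn8 at 392 and 151 CPM, against at most 0.27 CPM in the other 6 libraries of that region. Replicate 3 of the 3-month efferent ductules had more of the sperm transcript Prm2 (51.5 CPM against 12.5 to 12.9 CPM in the others of its group), and replicate 4 of the 3-month initial segment had more of the caput transcript Defb15 (5.0 CPM against 0.28 to 0.98 CPM). In replicate 2 of the 3-month caput the single gene Gm42418 took 49.7% of all counts, and in the cauda replicate 3 at 3 months and replicate 2 at 21 months had the lowest sums over 20 epithelial genes (1599 and 1829 CPM, against 2505 to 2820 CPM in the other 6). Changes with age that rest on these 7 libraries are given with and without them. In the vas deferens at 21 months, replicates 1, 2 and 3 carried Svs5 at 22.2, 109 and 50.6 CPM and Pate4 at 64.6, 189.9 and 72.2 CPM, against at most 0.241 and 3.42 CPM in the other 5 libraries, and changes there are also given without these 3.

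Genome positions are those of GENCODE M21 on GRCm38, over whole protein-coding genes. Cldn3 (ENSMUSG00000070473, chr5:134986214-134987472, plus strand) and Cldn4 (ENSMUSG00000047501, chr5:134945119-134946934, minus strand) are close neighbours. Cldn1 (ENSMUSG00000022512, chr16:26356642-26371841, minus strand) and Cldn8 (ENSMUSG00000050520, chr16:88560828-88563183, minus strand) share a chromosome. Cldn2 (ENSMUSG00000047230) lies at chrX:139800828-139811386, plus strand, and Cldn7 (ENSMUSG00000018569) at chr11:69964779-69967885, plus strand. Cldn10 (ENSMUSG00000022132) spans chr14:118787908-118875489, plus strand, and Ocln (ENSMUSG00000021638) spans chr13:100496507-100552718, minus strand. Tjp1 (ENSMUSG00000030516) lies at chr7:65296165-65527781 and Tjp3 (ENSMUSG00000034917) at chr10:81273207-81291581, both on the minus strand. Exons of Cldn3 shared 40 bases with the antisense gene Wbscr25, and exons of Tjp3 shared 40 bases with Apba3 on the opposite strand. The kit kept the strand, but the strand setting of the counting was not given in the sources used here.

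The promoters of Cldn2 and Cldn10 are shown because, of all pairs among the 10 genes, their levels had the highest correlation over the ducts. RefSeq gave start sites for 9 of the 10 genes, 13 in all, on GRCm38.p6, and the 250 bases before each start are used. In capitals, on either strand, are TATAAA (the TATA box), GGGCGG (the GC box) and TGTTCT (a hexamer of androgen receptor sites, printed as AGAACA where it lies on the other strand). Cldn2 has 1 listed start, and its window covers chrX:139800558-139800807 on the plus strand. Cldn10 has 2 listed starts that give transcripts with different first exons, with windows at chr14:118787621-118787870 and, inside the gene, at chr14:118854700-118854949, both on the plus strand. Counts per gene do not tell the transcripts of these starts apart.
Cldn2: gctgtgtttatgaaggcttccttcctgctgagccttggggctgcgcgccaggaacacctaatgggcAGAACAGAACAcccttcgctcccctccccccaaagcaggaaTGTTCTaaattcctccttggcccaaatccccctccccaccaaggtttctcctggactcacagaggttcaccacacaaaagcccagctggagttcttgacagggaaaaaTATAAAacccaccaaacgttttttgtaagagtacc
Cldn10, first start: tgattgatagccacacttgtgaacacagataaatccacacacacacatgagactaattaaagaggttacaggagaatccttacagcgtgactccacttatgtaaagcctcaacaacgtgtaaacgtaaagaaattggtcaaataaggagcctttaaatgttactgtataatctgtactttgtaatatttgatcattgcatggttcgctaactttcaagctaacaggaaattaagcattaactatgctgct
Cldn10, second start: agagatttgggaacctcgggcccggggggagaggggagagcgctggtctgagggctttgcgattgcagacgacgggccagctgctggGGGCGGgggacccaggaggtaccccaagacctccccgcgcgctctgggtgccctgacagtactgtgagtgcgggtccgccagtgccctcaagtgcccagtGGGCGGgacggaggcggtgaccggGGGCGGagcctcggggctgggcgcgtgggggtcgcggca
The Cldn2 window held TATAAA from base -35 to -30 before the start and 3 copies of TGTTCT, at -184 to -179, -179 to -174 and -143 to -138, of which the first 2 overlap by 1 base. No other listed window of the 10 genes held either motif, while 12.4% and 16.1% of all 32851 RefSeq windows of this length did. The first Cldn10 window held none of the letters searched and had 36.0% G and C, whereas the second had 72.4% G and C and 3 GC boxes, a motif found in 32.7% of all windows. AACCGGTT, a grainyhead site, was found in no window of the 10 genes and in 0.116% of all windows. These matches describe the letters and are not measured binding sites.

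Regions differed in most comparisons. In 3-month-old mice 164 of 210 pairwise comparisons, 10 genes times 21 pairs of regions, had an adjusted p under 0.05 (78.1%, against 49.6% of all gene and pair combinations tested), and in 21-month-old mice 170 of 210 had (81.0%, against 48.5%). The genes behind these background shares include many with few counts, down to 10 in total, for which differences are harder to detect. Without the first 7 libraries that stood apart, the number at 3 months was also 170. Adjusted p-values for regions come from edgeR's quasi-likelihood test on the 28 libraries of an age, with Benjamini-Hochberg adjustment over all genes, and measure the spread between mice. All regions of an age came from the same 4 mice, which the labels do not tie to replicate numbers. At 3 months all 10 genes differed between testis and efferent ductules (75.4% of all genes did), 9 of them being higher in the ductules and Tjp1 lower. From efferent ductules to initial segment 9 differed (background 43.5%), and from initial segment to caput again 9 (27.8%). Fewer differed further along at 3 months, with 6 from caput to corpus (33.9%), 5 from corpus to cauda (24.4%) and 4 from cauda to vas deferens (36.8%). At 21 months 10 genes differed from testis to efferent ductules (background 74.3%), 8 on to the initial segment (44.6%), 7 to the caput (29.7%), 6 to the corpus (32.3%), 9 to the cauda (26.8%) and 4 to the vas deferens (35.1%).

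**Figure D1:**
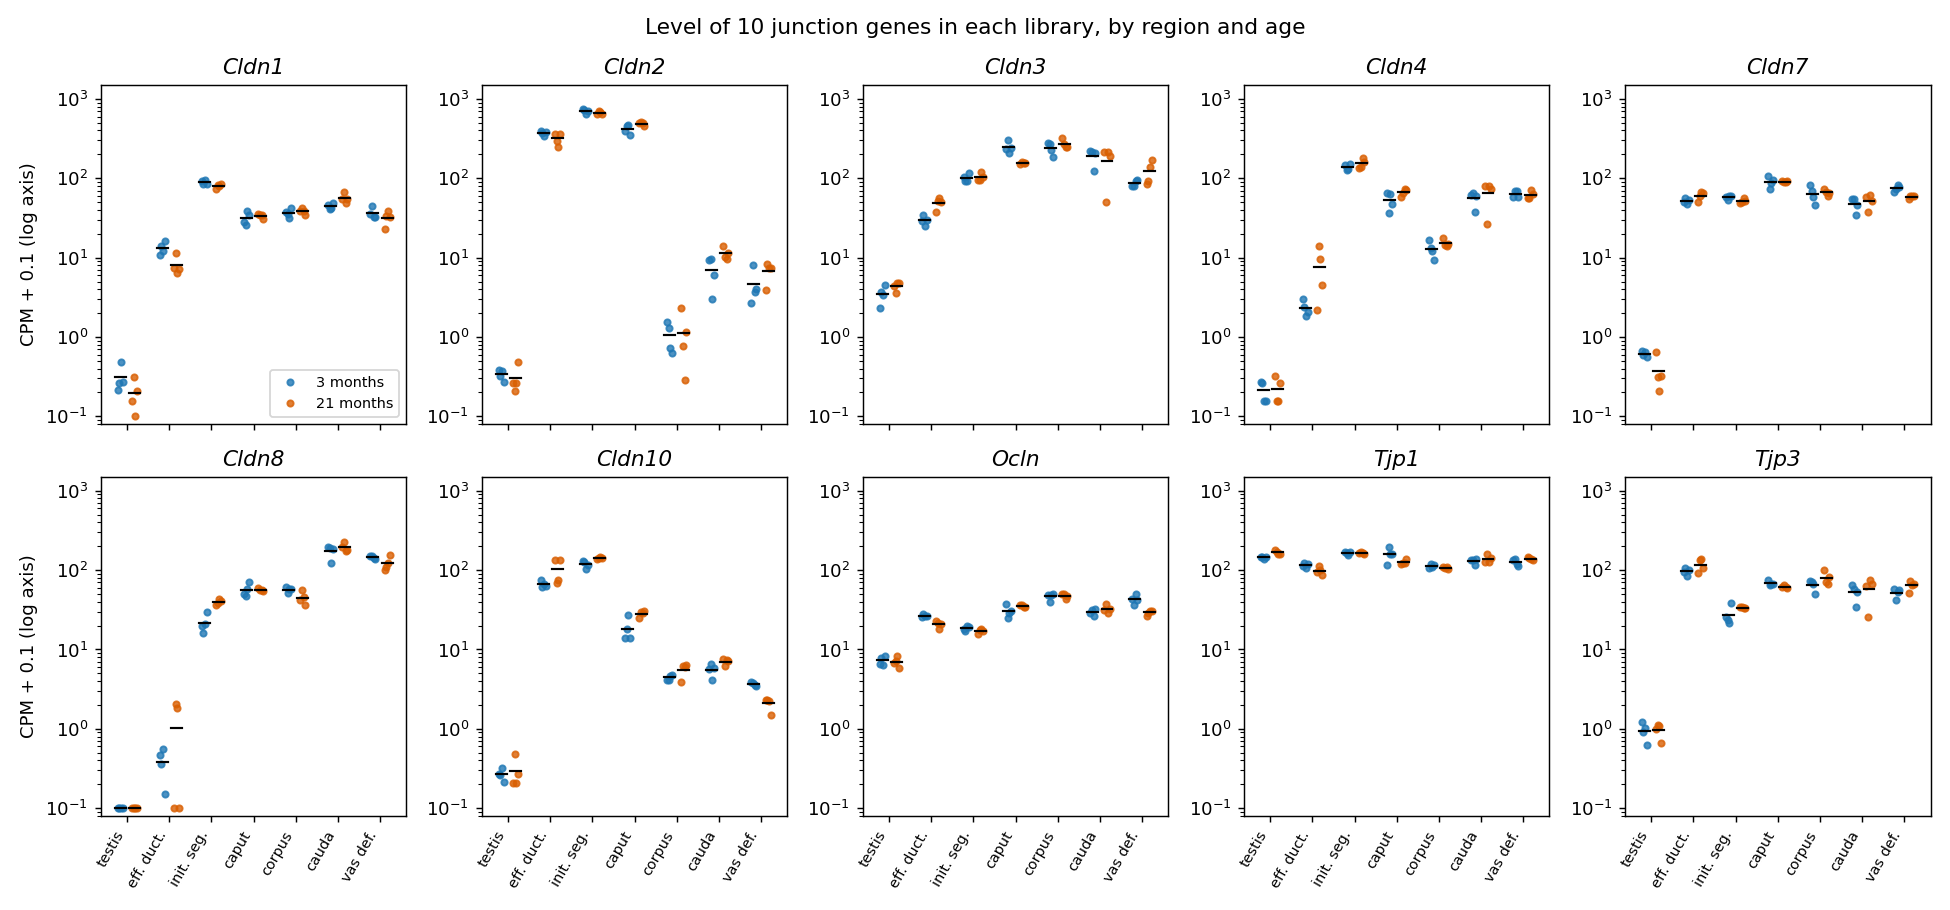
Level of each gene (CPM + 0.1, log axis) in the 7 regions, with 1 point per library, blue for 3 months and orange for 21 months, and a black line at the mean of 4 libraries. Cldn2 dropped from 417 CPM in the caput to 0.953 CPM in the corpus at 3 months, Cldn8 was highest in the cauda, and the 3-month means of Tjp1 lay between 112 and 165 CPM in every region.

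The pore claudin Cldn2 was a transcript of the proximal tract. At 3 months the 4 libraries held 394, 376, 337 and 382 CPM in the efferent ductules, 742, 733, 653 and 705 CPM in the initial segment, and 394, 452, 471 and 351 CPM in the caput. In the corpus they held 1.46, 1.19, 0.635 and 0.533 CPM. No corpus library came near a caput library, and the step was a log2 difference of -8.81 ± 0.34 (SE, adjusted p = 9.41e-19). Cldn2 was then higher again in the cauda (6.93 ± 3.11 CPM, log2 difference from the corpus 2.86 ± 0.34, adjusted p = 8.50e-08), at 4.52 CPM in the vas deferens and at 0.238 CPM in the testis. At 21 months the caput held 488 CPM and the corpus 1.03 CPM. Over the ducts the highest and lowest group means of Cldn2 were 743-fold apart at 3 months and 654-fold at 21 months, the widest range of the 10 genes at both ages.

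Cldn10, which forms anion or cation pores depending on the transcript, fell in smaller steps. Its 3-month libraries held 75.9, 62.1, 67.3 and 62.9 CPM in the efferent ductules, 132, 125, 102 and 117 CPM in the initial segment, and 13.8, 18.2, 27.1 and 13.9 CPM in the caput. The initial segment libraries did not overlap with those of either neighbour. The drop to the caput was -2.72 ± 0.16 on the log2 scale (adjusted p = 2.12e-14), and a second drop of -2.09 ± 0.17 followed to the corpus (adjusted p = 2.25e-11). The corpus, cauda and vas deferens held 4.35, 5.48 and 3.59 CPM. Across the 56 libraries, log2(CPM + 1) of Cldn2 and Cldn10 had a Pearson correlation of 0.92, and 0.89 over the 48 duct libraries, the highest among the 45 pairs of the 10 genes over the ducts. Libraries of a group share a region, so this value describes regions more than single libraries.

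Cldn4, a sealing claudin, was also highest in the initial segment but had a second high stretch at the distal end. Its 3-month libraries held 2.89, 2.29, 1.75 and 1.99 CPM in the efferent ductules and 147, 127, 129 and 149.5 CPM in the initial segment, a log2 difference of 5.98 ± 0.23 (adjusted p = 3.62e-19). The level then fell to 53.3 CPM in the caput and 12.8 CPM in the corpus, and was higher in the cauda (56.1 ± 13 CPM) and the vas deferens (63.4 ± 6.6 CPM). The step from corpus to cauda was 2.12 ± 0.19 (adjusted p = 2.52e-10), whereas vas deferens, cauda and caput did not differ beyond their spread.

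The study called a gene region-specific at 4-fold or more over the remaining 6 regions with p under 0.05. Read here as 4-fold over the average of those 6 regions, before adjustment of p, this rule was met by 3 of the 10 genes at 3 months, all in the initial segment, against 2.41% of all genes. These were Cldn10 (7.22 times the mean of the others), Cldn2 (5.30 times) and Cldn4 (4.41 times). The same 3 passed at 21 months (5.82, 4.88 and 4.26 times, background 4.1%), and Cldn8 passed there for the cauda (4.38 times, background 1.9%). Read instead as 4-fold over each of the other regions in turn, the rule was met by none of the 10 genes at either age, since for all of them a neighbouring or second region was also high.

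Cldn8, a claudin that blocks cations and is best known from the distal nephron, was highest in the cauda, followed by the vas deferens. No count fell on Cldn8 in any of the 8 testis libraries. In the 3-month efferent ductules it was at 0.367, 0.266, 0.461 and 0.051 CPM, in the initial segment at 19.6, 15.8, 20.7 and 29.6 CPM, and in the cauda at 196, 188, 124 and 187 CPM. The lowest cauda library was replicate 3, which also had the lowest sum of epithelial genes. From efferent ductules to initial segment the log2 difference was 6.19 ± 0.28 (adjusted p = 2.48e-16), from initial segment to caput 1.39 ± 0.17 (adjusted p = 3.94e-07), and from corpus to cauda 1.6 ± 0.17 (adjusted p = 3.02e-08). Caput and corpus were level at 56.3 and 56.9 CPM. The vas deferens, at 145 CPM, did not differ from the cauda beyond the spread at 3 months (adjusted p = 0.292), but at 21 months it was lower, with 122 against 193 CPM (adjusted p = 0.0362). Against a floor of 3 counts over the 4 testis libraries (0.0421 CPM), the 3-month cauda was at least 4122-fold higher. Over the ducts, log2(CPM + 1) of Cldn8 and Cldn10 had a correlation of -0.69.

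Cldn3, a sealing claudin, took its highest levels in the middle of the tract. At 3 months it stood at 29.4 ± 3.5 CPM in the efferent ductules, 102 CPM in the initial segment, 247 ± 38 CPM in the caput, 242 CPM in the corpus, 191 ± 46 CPM in the cauda and, at the end of the tract, 87.2 CPM in the vas deferens. Caput, corpus and cauda did not pass the test against each other (adjusted p of caput against cauda 0.0513), and neither did initial segment and vas deferens (adjusted p = 0.248, although a fit of these regions alone gave an adjusted p of 0.0178). The steps up to the initial segment (1.82 ± 0.17, adjusted p = 1.58e-10) and to the caput (1.27 ± 0.16, adjusted p = 3.16e-07) and down to the vas deferens (-1.11 ± 0.16, adjusted p = 2.02e-06) did.

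Cldn1, a sealing claudin of many epithelia and of the skin barrier, was highest in the initial segment, with 91.7, 85.0, 93.7 and 85.4 CPM at 3 months, all above the highest library of any other region (49.0 CPM in the cauda). Cauda, corpus, vas deferens and caput held 31.6 to 44.5 CPM, and no neighbours in this order differed. In all, 16 of its 21 pairs of regions differed at 3 months. These are more than its pairs with initial segment, efferent ductules and testis, so some difference lay within this stretch. The efferent ductules were lower at 13.1 ± 2.4 CPM. Cldn7, which is found basolaterally in many epithelia, was the most even claudin of the ducts. Its 3-month means ran from 47.4 CPM in the cauda to 90.6 CPM in the caput, 1.91-fold apart. Of its 21 pairs of regions 14 differed at 3 months, among them corpus and cauda (adjusted p = 0.0259). Between neighbours in its order only the step to the testis (0.519 CPM) passed the test. A fit of initial segment and efferent ductules alone also told these neighbours apart (57.9 and 51.9 CPM, adjusted p = 0.00744).

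Among the remaining genes, Ocln at 3 months was highest in the corpus (46.7 CPM) and vas deferens (42.8 CPM) and lowest among the ducts in the initial segment (18.5 CPM), a 2.52-fold range. At 21 months the corpus was highest again (47.7 CPM), followed by the caput (35.4 CPM), cauda (32.3 CPM) and vas deferens (29.2 CPM). Its correlation over the 48 duct libraries was -0.78 with Cldn10 and -0.74 with Cldn2. Tjp3 was highest in the efferent ductules, with 94.2, 106, 85.4 and 101 CPM, and lowest among the ducts in the neighbouring initial segment, with 25.7, 23.5, 21.6 and 37.9 CPM, where the highest value belonged to the library with caput transcripts. That step was -1.8 ± 0.17 (adjusted p = 2.37e-10). Cldn1 and Tjp3 had the lowest correlation of the 45 pairs over the ducts, at -0.83.

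Tjp1 was the flattest of the 10 genes and the only one as high in the testis as in the ducts. Its means at 3 months were 165 CPM in the initial segment, 158 CPM in the caput, 145 CPM in the testis, 131 CPM (cauda), 126 CPM (vas deferens), 115 CPM in the efferent ductules and 112 CPM in the corpus. None of the 6 neighbouring steps in this order passed the test, and 10 of its 21 pairs of regions differed at 3 months and 13 at 21 months, the fewest of the 10 genes at 3 months and, together with Cldn7, at 21 months.

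**Figure D2:**
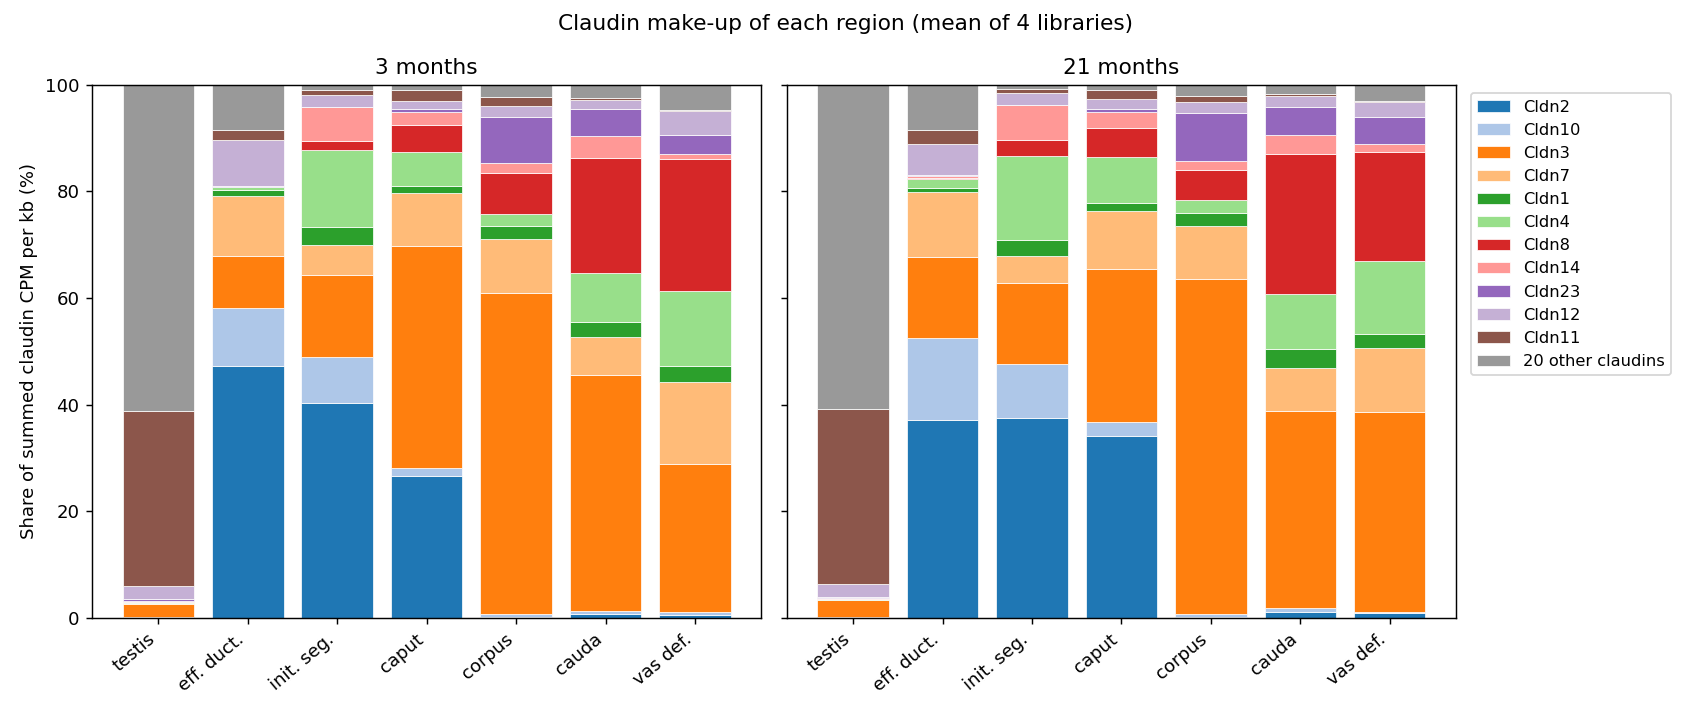
Share of each claudin in the summed CPM per kb of 31 claudins, as the mean of 4 libraries per region, at 3 months (left) and 21 months (right). At 3 months Cldn2 made up 47.2% of the sum in the efferent ductules and 0.0872% in the corpus, where Cldn3 made up 60.3%.

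Divided by exon length, the claudins could be compared with each other. Of the summed CPM per kb of 31 measured claudins, the 7 listed here took 80.9 to 92.4% in the 6 duct regions at 3 months and 2.86 ± 0.66% in the testis. In the efferent ductules and initial segment Cldn2 was the leading claudin, with 47.2 ± 0.9% and 40.3 ± 1.9% of the sum. In the caput Cldn3 led with 41.7 ± 5.6%, ahead of Cldn2 with 26.6 ± 2.7%. In the corpus Cldn3 took 60.3 ± 2.5% and Cldn2 and Cldn10 together under 1%. In the cauda Cldn3 led with 44.4 ± 1.9%, ahead of Cldn8 with 21.8 ± 0.6%, and in the vas deferens their shares were close to each other, at 27.7 ± 2.0% and 24.7 ± 1.7%. The summed level itself was lowest among the ducts in the efferent ductules (237 ± 11 CPM per kb) and highest in the initial segment (529 ± 30 CPM per kb), against 113 ± 15 CPM per kb in the testis.

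At 21 months the share of Cldn2 in the caput was 34.1 ± 1.1% and that of Cldn3 28.8 ± 0.2%, so that their order was turned relative to 3 months. Cldn3 shares in the caput ran from 34.9 to 48.4% at 3 months and from 28.7 to 29.1% at 21 months, without overlap, and the highest young share was that of the library rich in Gm42418 (34.9 to 43.0% without it). In the efferent ductules the share of Cldn2 ran from 46.0 to 48.0% at 3 months and from 32.2 to 41.2% at 21 months, the 2 old libraries without Lcn8 holding 39.0 and 41.2%. These shares were not tested.

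With age, 6 of 69 gene and region combinations rose and 3 fell by the study's rule, 1.5-fold or more with p under 0.05 before adjustment (8.70% and 4.35%, against 5.37% and 4.88% of all genes in all regions). With an adjusted p under 0.05 and the same fold, 5 of 69 passed (7.25%, background 4%). Ages did not overlap in 11 of 69 combinations (15.9%, background 13.6%). These shares were near those of all genes. Cldn8 in the testis, with no counts, was the combination not tested. Each region was fitted on its own 8 libraries with edgeR's quasi-likelihood test, and adjusted p-values below are over all genes of that region. No member was called in the testis or the corpus. Tjp1, Tjp3, Cldn7 and Ocln were called in no region.

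**Figure D3:**
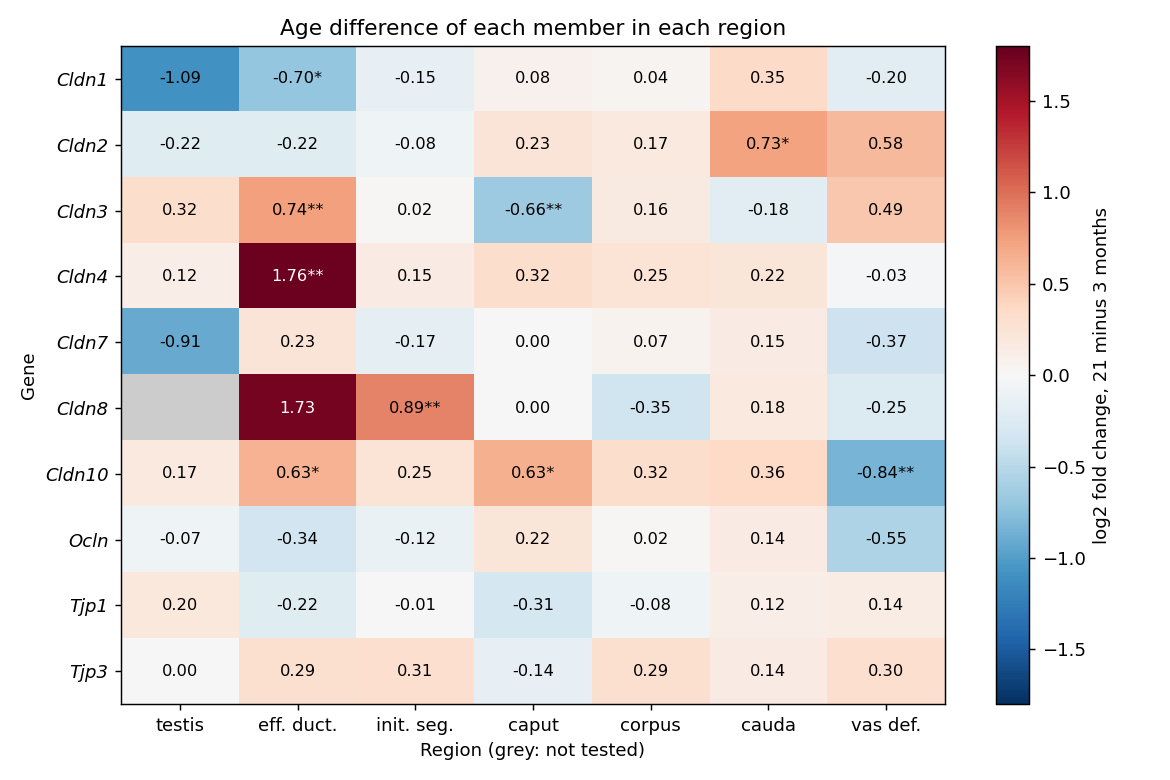
Log2 fold change from 3 to 21 months (colour and number) for each gene in each region, with 1 star for at least 1.5-fold with p under 0.05 before adjustment, 2 stars where the adjusted p was also under 0.05, and grey for the combination not tested. The 9 starred combinations lie in 5 regions; the large values of Cldn4 and Cldn8 in the efferent ductules rest on 2 libraries with initial segment transcripts.

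In the efferent ductules 3 of 10 genes rose (background 6.58%) and Cldn1 fell (background 6.27%). Cldn3 went from 29.0, 33.9, 25.2 and 29.4 CPM at 3 months to 37.8, 51.1, 56.8 and 49.6 CPM at 21 months. All old libraries were above all young ones, and the log2 fold change was 0.74 ± 0.13 (adjusted p = 0.0140). Without the libraries that stood apart it was 0.56 (adjusted p = 0.00327), under 1.5-fold. Cldn1 went from 10.5, 13.8, 12 and 16.1 CPM to 7.21, 11.3, 6.24 and 7.19 CPM, with 1 old library inside the young range (-0.70 ± 0.20, adjusted p = 0.0628), and fell by 0.85 without the libraries that stood apart (adjusted p = 0.00419).

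Cldn4 rose by 1.76 ± 0.46 (adjusted p = 0.0470), from 2.89, 2.29, 1.75 and 1.99 CPM to 2.10, 13.8, 9.61 and 4.37 CPM. The highest values, in replicates 2 and 3, were those of the libraries with Lcn8, and without the libraries that stood apart the change was 0.49 (adjusted p = 0.290). Cldn8 followed the same libraries, with 0, 1.94, 1.71 and 0 CPM at 21 months against 0.051 to 0.461 CPM at 3 months, and did not pass the test (its change took the other sign without them). The initial segment itself holds 154 CPM of Cldn4 and 39.9 CPM of Cldn8 at 21 months.

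Cldn10 went from 62.1 to 75.9 CPM at 3 months to 134, 69.3, 74.0 and 135 CPM at 21 months (0.63 ± 0.22, adjusted p = 0.116). Here the high libraries were replicates 1 and 4, those without Lcn8, and without the libraries that stood apart the log2 fold change was 1.06 (adjusted p = 2.88e-06). In replicates 1 and 4 Gm42418 took 22.2% and 18.5% of the counts, against 4.93% and 14.9% in replicates 2 and 3. The 20 epithelial genes summed to 1845 to 2266 CPM at 3 months and 2210 to 2790 CPM at 21 months. Scaled to these genes, Cldn3 was higher by 0.54 (adjusted p = 0.0311) and Cldn10 by 0.41 (adjusted p = 0.244), both under 1.5-fold. Scaled by library size only, neither was called (0.42, adjusted p = 0.0859, and 0.26, adjusted p = 0.372), Cldn4 stood at 1.496 (adjusted p = 0.0546) and Cldn1 fell by 1.008 (adjusted p = 0.0147). In the same region 11 of 12 genes of the T cell list rose with age (sums of 5.97 to 7.24 CPM, then 15.9 to 21.1 CPM), as did 8 of 9 of the B cell and plasma cell list (32.6 to 55.6 CPM, then 159 to 685 CPM) and 5 of 10 of the macrophage list (289 to 349 CPM, then 432 to 577 CPM). Of the basal cell list 4 of 10 rose, with sums of 597 to 699 CPM and 506 to 614 CPM. Of 8 adipocyte genes 5 fell and 1 rose (299.7 to 556 CPM, then 111 to 356 CPM). Of the red blood cell list 5 of 7 rose (17.2 to 25.2 CPM, then 37.7 to 115 CPM), as did 2 of 6 clear cell genes tested (45.4 to 56.4 CPM, then 56.6 to 84.5 CPM). The part of these cells and of library make-up in the changes was otherwise not tested.

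**Figure D4:**
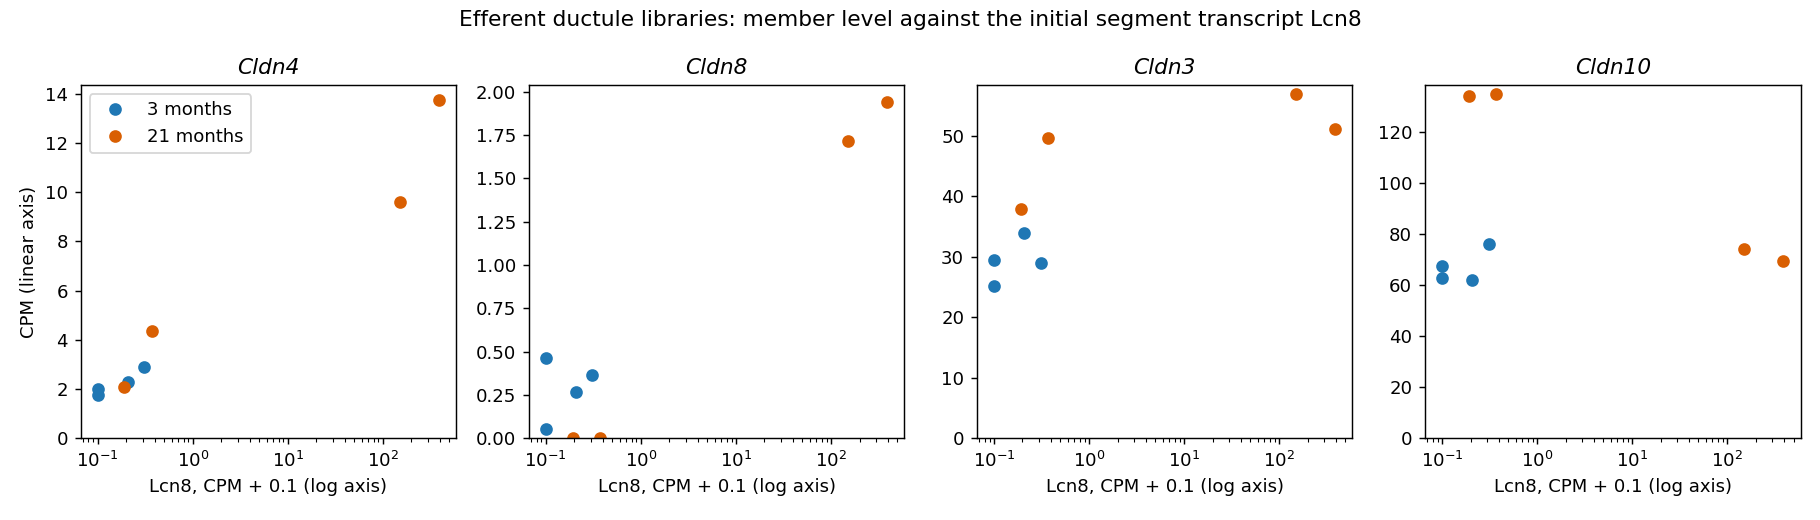
Level of Cldn4, Cldn8, Cldn3 and Cldn10 (CPM) against the initial segment transcript Lcn8 (CPM + 0.1, log axis) in the 8 efferent ductule libraries, blue for 3 months and orange for 21 months. The 2 old libraries with Lcn8 at 151 and 392 CPM hold the highest Cldn4 and Cldn8, while the highest Cldn10, at 134 and 135 CPM, is in the 2 old libraries without it.

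In the initial segment Cldn8 alone rose (1 of 10, background 6.03%). Its libraries went from 19.6, 15.8, 20.7 and 29.6 CPM to 36.3, 38.8, 43.6 and 40.7 CPM without overlap, a log2 fold change of 0.89 ± 0.14 (adjusted p = 0.00235). The highest young value was that of the library with caput transcripts, and without it the change was 1.09 (adjusted p = 6.29e-05). The caput transcript Lcn5 stood at 23.7 to 48.7 CPM at 3 months and 20.7 to 39.1 CPM at 21 months, and the 8 genes of the clear cell list summed to 171 to 204 CPM and 142 to 176 CPM. Of the germ cell list 15 of 18 fell in this region (sums of 125 to 239 CPM, then 78.6 to 121 CPM), against 5.42% of all genes. The genes that rose were 8 of 12 T cell genes (6.10 to 6.77 CPM, then 11.7 to 17 CPM), 5 of 7 B cell and plasma cell genes tested (6.87 to 11.8 CPM, then 31.4 to 241 CPM) and 3 of 10 macrophage genes (220 to 233 CPM, then 262 to 344 CPM). The part of these cells was not tested. Tjp3, at 27.2 and 33.7 CPM, was higher by 0.31 with overlap and did not pass, but without that library it was higher by 0.51 (adjusted p = 0.00378), under 1.5-fold. At 21 months Cldn8 in the initial segment no longer differed from the caput in the fit of all regions (log2 difference 0.48 ± 0.27, adjusted p = 0.194), although a fit of these regions alone, added after seeing the data, gave 0.51 ± 0.07 (adjusted p = 1.45e-05).

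In the caput Cldn3 fell (1 of 10, background 8.36%) and Cldn10 rose (1 of 10, background 4.83%). Cldn3 went from 236, 299, 209 and 244 CPM to 153, 159, 157 and 156 CPM, with every old library below every young one (-0.66 ± 0.11, adjusted p = 0.00569). The young library at 299 CPM was the one in which Gm42418 took 49.7% of counts, and without it the change was -0.54 (adjusted p = 0.00663), under 1.5-fold. Scaled by library size only, the change was -0.40 and did not pass (adjusted p = 0.656). Cldn10 went from 13.8, 18.2, 27.1 and 13.9 CPM to 24.7, 29.3, 28.9 and 30.1 CPM, overlapping in 1 young library (0.63 ± 0.19, adjusted p = 0.0576). That young library had the most Lcn8 of its group (989 CPM, against 422 to 513 CPM), and the old libraries held 516 to 1029 CPM. Of the germ cell list 6 of 18 fell and 1 rose in the caput (sums of 229.9 to 350.1 CPM, then 188 to 213 CPM). Of 8 adipocyte genes 4 fell and 2 rose (2.51 to 15.4 CPM, then 0.991 to 4.08 CPM), and 6 of 7 red blood cell genes rose (9.55 to 17.1 CPM, then 16.5 to 75.2 CPM). The Sertoli cell list, with 2 of 11 genes down, summed to 14537 to 18568 CPM and 10840 to 12954 CPM. In the testis it summed only to 1210 to 1362 CPM and 1245 to 1437 CPM, so that in the caput it is no measure of Sertoli cells. Of the smooth muscle list 4 of 10 fell (1498 to 1960 CPM, then 1132 to 1314 CPM) and 9 of 12 T cell genes rose (3.73 to 7.48 CPM, then 12.7 to 20.1 CPM). The part of these cells and of where the caput was cut was not tested.

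In the cauda Cldn2 rose (1 of 10, background 3.62%) from 9.25, 9.56, 2.95 and 5.98 CPM to 14, 10.2, 9.62 and 11.3 CPM. The ages did not overlap, but by little, and the change of 0.73 ± 0.32 did not survive adjustment (adjusted p = 0.461). The lowest library was the one low in epithelial genes, which also held 1599 CPM of the macrophage list (332 to 359 CPM in the others of its group), 29.2 CPM of the T cell list (7.49 to 12.8 CPM) and 307 CPM of the clear cell list (163 to 169 CPM). Without the libraries that stood apart the change was 0.51 (adjusted p = 0.145). Without these, Cldn4 in the cauda was higher by 0.33 (adjusted p = 0.0098), under 1.5-fold. Of the smooth muscle list 5 of 10 fell in the cauda (5437 to 7965 CPM, then 3494 to 5268 CPM), as did 4 of 12 endothelial genes (169 to 314 CPM, then 105 to 169 CPM), against 4.62% of all genes. The clear cell list, with 1 of 7 genes tested down, summed to 163 to 307 CPM and 127 to 142 CPM. Of the B cell and plasma cell genes 6 of 9 rose (18.6 to 48.2 CPM, then 74.7 to 343 CPM). The part of these cells in the cauda was not tested.

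In the vas deferens Cldn10 fell (1 of 10, background 5.37%), from 3.82, 3.69, 3.52 and 3.32 CPM to 2.24, 2.24, 2.13 and 1.38 CPM without overlap (-0.84 ± 0.20, adjusted p = 0.0138). Ocln was lower in the same libraries, with 42.7, 36.4, 49.7 and 42.2 CPM at 3 months and 26.6, 28.8, 30.6 and 30.6 CPM at 21 months (-0.55 ± 0.10, adjusted p = 0.00516), as was Cldn7, with 67.3 to 81.7 CPM and 54.3 to 60.03 CPM (-0.37 ± 0.08, adjusted p = 0.00936). Neither pair of ages overlapped, and both changes were under 1.5-fold. Over the same libraries the 20 epithelial genes summed to 1911 to 2044 CPM at 3 months and 2052 to 2577 CPM at 21 months, and 2 of them rose and none fell. The 9 genes of the B cell and plasma cell list summed to 23.4 to 41.8 CPM and 835 to 1722 CPM, and the vas deferens transcript Akr1b7 stood at 21197 to 24231 CPM and 10887 to 18484 CPM. Scaled to the epithelial genes, Ocln fell by 0.70 (adjusted p = 0.00195), and scaled by library size only it fell by 0.61 (adjusted p = 0.00492). With replicates 1, 2 and 3 of the old mice left out, the old group was replicate 4 alone, whose spread is then assumed to be that of the young group. In that fit Cldn10 fell by 1.36 (adjusted p = 0.00699) and Ocln stood at -0.47 (adjusted p = 0.0344, under 1.5-fold), while Cldn7 no longer passed (-0.32, adjusted p = 0.0596). Cldn3 was higher in it by 0.98 (adjusted p = 4.48e-05), with 171 CPM in replicate 4 against 85.6, 91.8 and 140 CPM in the other old libraries and 80.1 to 95.4 CPM at 3 months; with all libraries its difference of 0.49 did not pass (adjusted p = 0.109). Replicate 4 also had the lowest Akr1b7, and the highest sums of the B cell and plasma cell list and of the 20 epithelial genes. Of all genes 12.4% rose in the vas deferens. All 12 T cell genes rose there (7.76 to 12.6 CPM, then 30.3 to 87.6 CPM), and so did all 4 corpus markers (sums of 627 to 801 CPM, then 992 to 2893 CPM). Of these, Gpx3 stood at 988, 1137, 1527 and 2885 CPM in old replicates 1 to 4, the same order of libraries as for Cldn3. Of the endothelial list 3 of 12 fell in the vas deferens (327 to 375 CPM, then 219 to 326 CPM). The part of these other cells in the changes was not tested.

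**Figure D5:**
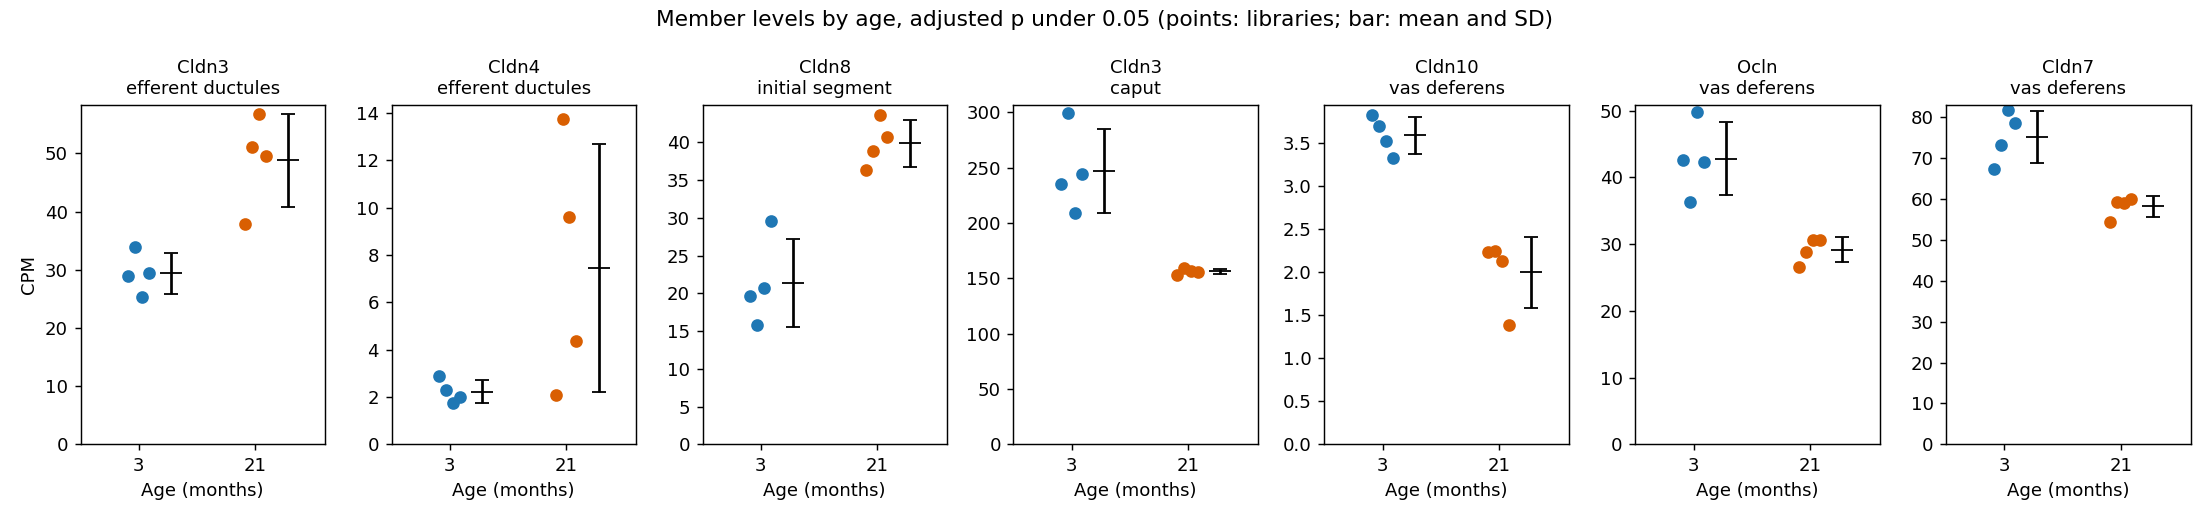
CPM of each library (points) with mean and SD (black) at 3 months (blue) and 21 months (orange), for the 7 combinations with an adjusted p under 0.05. Ages overlap only for Cldn4 in the efferent ductules, where the high old libraries are those with Lcn8, and Cldn3 lies higher at 21 months in the efferent ductules and lower in the caput.

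Whether an age effect differed between regions was tested over all 56 libraries with 6 interaction terms. An adjusted p under 0.05 was found for 7 of 10 genes, against 19.3% of all genes, many of which have few counts. They were Ocln (adjusted p = 0.00190), Cldn10 (0.00296), Cldn8 (0.00878), Cldn1 (0.0100), Cldn4 (0.0151), Tjp1 (0.0156) and Cldn3 (0.0163). Cldn7 (0.0716), Cldn2 (0.225) and Tjp3 (0.738) did not pass. For Cldn3 the estimates had opposite signs in efferent ductules (0.74) and caput (-0.66), and for Cldn10 in efferent ductules or caput (both 0.63) and vas deferens (-0.84). The number fell to 2 without replicate 4 of every group, leaving Cldn8 and Ocln, and to 3 without replicate 3, leaving Cldn1, Cldn10 and Ocln, and without the libraries that stood apart Cldn4 no longer passed (adjusted p = 0.750).

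The other genes of the pathway were taken from lists of 24 further claudins and 34 further tight junction genes. At 3 months 23 of 399 tested combinations of gene and region were region-specific (5.76%, against 6.88% of all). Of 57 genes tested, 13 were specific to the testis (22.8%, against 28.8% of all genes). They included Cldn11 (68.9 CPM, 8.56 times the other regions), the claudin of Sertoli cell junctions, Ybx3 (983 CPM, 22.9 times), Arhgef2 (335 CPM, 5.84 times), Pard6a (28.8 CPM, 5.96 times), Cldn13, Cldn24 and 7 genes of the Cldn34 family at 4.31 to 13.5 CPM. Cldn11 took 32.9% of the summed claudin CPM per kb of the testis. In the ducts the region-specific genes were Ildr2, a gene of tricellular junctions (187 CPM, 4.72 times), with Cldn6, Cldn9 and Cldn22 at 2.22 to 7.55 CPM in the efferent ductules (background 5.36%), and Cldn14 (72.9 CPM, 6.00 times) in the initial segment. Cldn23 (50.1 CPM, 5.59 times) was specific to the corpus (background 2.66%) and Cldn15 (14.2 CPM, 4.04 times) to the vas deferens (background 3.4%). Cldn16 in the initial segment, Cldn20 in the caput (background 3.46%) and Cldn17 in the vas deferens passed at under 1 CPM.

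With age, 4 of 326 tested combinations of these genes with the 7 regions rose and 9 fell (1.23% and 2.76%), below the 5.37% and 4.88% of all genes. The smallest p of each region belonged to Cldn12 in the vas deferens (47.4, 50.3, 46.7 and 50.1 CPM, then 36.0, 31.8, 27.9 and 20.1 CPM, -0.75 ± 0.14, adjusted p = 0.00536) and to Amotl2, a gene of junction signalling, in the caput (48.4 to 50.8 CPM, then 30.1 to 36.3 CPM, -0.61 ± 0.10, adjusted p = 0.00352). In both the ages did not overlap. Cldn14 was called up in the efferent ductules (adjusted p = 0.0479), where it was at 0, 6.69, 2.88 and 0 CPM at 21 months and at most 0.105 CPM at 3 months, so that its counts lay in the libraries with Lcn8. Marveld2, the tricellulin gene, in the testis (-0.62, adjusted p = 0.311), Cldn9 in the initial segment (-1.62, adjusted p = 0.203) and Cldn15 in the cauda (-0.86, adjusted p = 0.238) did not survive adjustment.

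Among 13850 protein-coding genes with at least 10 CPM in a group, those most like each member over the 56 libraries, by Pearson's correlation of log2(CPM + 1), were Adgrg2 (0.98) and Cndp1 (0.96) for Cldn2, Slc4a4 (0.97) and Slc16a13 (0.95) for Cldn10, Mapk12 (0.97) and Sema5a (0.95) for Cldn4, and Adgrg6 (0.97) and Tbx3 (0.96) for Cldn8. For Cldn1 they were Rap1gds1 and Rcn1 (both 0.98), for Cldn3 Suox and Otud5 (both 0.98), for Cldn7 Tmc4 and Spint1 (both 0.99), and for Tjp3 Ldb1 and Mlph (both 0.98). For Ocln they were Cth (0.97) and Fbxl4 (0.96), and for Tjp1, with the lowest values, Nr2c1 (0.90) and Polb (0.84). These values include the testis, where most members were near 0. Over the 48 duct libraries alone the same pairs had correlations of 0.85 to 0.98, except Cldn7 with Tmc4 (0.78) and Tjp3 with Ldb1 (0.82) and Mlph (0.78). Adgrg2 is a receptor of the efferent ductule and proximal epididymal epithelium, and Slc4a4 is a sodium bicarbonate cotransporter.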

How the data were processed

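Raw read counts per Ensembl gene were deposited by the authors as whole numbers in 1 table of 56 columns, without normalization. Each column was matched to a sample by the column name in the sample's description. According to the study's methods, total RNA was made into libraries that keep the strand and read from both ends, HISAT2 placed the reads on GRCm38, and the submitters' processing notes also name cutadapt, HTSeq and mm10. Versions, annotation release and counting options are not given in the sources used here. The study tested genes with DESeq2.

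Symbols and exon lengths were taken from GENCODE M21, which named 53274 of 53379 genes. The 10 genes and all gene lists were chosen with earlier results of these data known. Libraries held 11125279 to 20561967 counts (median 16384049), no 2 were identical, and precision is limited by 4 libraries in each group.

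Age was tested per region (8 libraries) and regions per age (28 libraries) with glmQLFit and glmQLFTest of edgeR 4.0.16 in R 4.3.3, with TMM normalization and genes of at least 10 counts in total. The age by region interaction was tested on all 56 libraries. Fitted log2 fold changes are given ± SE, and adjusted p-values are Benjamini-Hochberg over all genes of a fit. The scripts were tested on simulated data with 200 changed genes. Alternatives were DESeq2 1.42.0, edgeR with the size factors of DESeq2, scaling by library size only, scaling to 20 epithelial genes, filterByExpr, no filter, all 56 libraries in 1 fit, a replicate block, adjusted p-values, 6 duct regions without the testis, each of the other 6 regions in turn, and fits without single libraries or replicate numbers. Leaving out 7 libraries together, leaving out 3 old vas deferens libraries, the block for corpus against cauda and fits of 2 regions alone were added after seeing the data. The genes named from other lists were those specific to a region at 3 months, those with the smallest p with age in each region and the 2 most correlated with each member. The expression of Gm42418, the region markers and the marker lists is given only beside results.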

Additional observations from a re-analysis of the deposited data

Results flagged for a closer look

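In 138 groups of 4 libraries in which a member's level varied, 11 (7.97%) had a highest or lowest library that stood apart from the other 3, by a gap above Dixon's critical value for its group size. About 1 in 20 groups is picked out in this way by chance. Of these, 5 fell in the cauda libraries low in epithelial genes. At 3 months, replicate 3 was low in Cldn3 (123 CPM, others 206 to 217 CPM), Cldn8 (124 CPM, others 187 to 196 CPM) and Tjp1 (115 CPM, others 135 to 137 CPM). At 21 months, replicate 2 was low in Cldn3 (50.3 CPM, others 193 to 211 CPM) and Cldn4 (26.6 CPM, others 72.5 to 80.9 CPM). In that library Cldn8, at 225 CPM, was instead the highest of its group.

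The other 6 fell in the caput, corpus, vas deferens and testis. Low libraries were Cldn1 in caput replicate 4 at 21 months (30.3 CPM, others 34.2 to 34.9 CPM), Cldn7 in vas deferens replicate 1 at 21 months (54.3 CPM, others 59.2 to 60.03 CPM) and Cldn10 in corpus replicate 1 at 21 months (3.75 CPM, others 5.98 to 6.24 CPM). Cldn10 in vas deferens replicate 4 at 21 months (1.38 CPM, others 2.13 to 2.24 CPM) and Tjp1 in testis replicate 3 at 3 months (137 CPM, others 147 to 148 CPM) were also low. Tjp3 in caput replicate 1 at 3 months was high (74.6 CPM, others 65.0 to 66.3 CPM).

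The change with age differed between the 7 regions for 7 members by edgeR's quasi-likelihood test of the interaction. The adjusted p was 0.0019 for Ocln, 0.00296 for Cldn10, 0.00878 for Cldn8, 0.0100 for Cldn1, 0.0151 for Cldn4, 0.0156 for Tjp1 and 0.0163 for Cldn3.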

How the results depend on the processing

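Precision was limited by 4 libraries a group, by tissue dissected whole and by libraries with marker transcripts of other regions. The number of members that rose with age, 6, became 3 with library size only, 3 with an adjusted p under 0.05 and 3 without the 7 libraries that stood apart, and ran from 5 to 8 when 1 library was left out. The number that fell, 3, stayed between 2 and 4, but not always with the same members. With library size only, Cldn3 in the caput was no longer called and Ocln was, in the efferent ductules (-0.68, adjusted p = 0.0060) and vas deferens (-0.61, adjusted p = 0.00492). The 13 other junction genes called with age became 24 with library size only and 5 with an adjusted p, and leaving out 1 library gave 10 to 15. Library size only moved the median change of all genes (log2) by -0.33 (efferent ductules), 0.20 (caput) and -0.15 (corpus), and scaling to epithelial genes moved it by -0.21 in the efferent ductules, -0.13 in the corpus and -0.14 in the vas deferens. Without 3 old vas deferens libraries, 7 members rose, 3 fell and 18 other junction genes were called. Region-specific members at 3 months, 3, became 5 when scaled to epithelial genes and 0 when 4-fold was asked against each other region in turn. At 21 months, 4 became 0 in the latter. Leaving out a replicate number gave 3 to 4 members at 3 months and 4 at 21 months. The 164 differences between region pairs ranged from 149 to 170 over all alternatives and from 160 to 165 without a replicate number. Members with an interaction, 7, became 4 with library size only, and ranged from 2 to 6 when a replicate number was left out. No direction of the 9 called changes with age reversed under any alternative. Of the combinations not called, 8 changed sign with library size only, 4 when scaled to epithelial genes, 1 with the replicate block, 2 without the 3 vas deferens libraries and 7 without the 7 libraries. The last included Cldn8 in the efferent ductules, which was then called down (adjusted p = 0.0995, with 0.051 to 0.367 CPM at 3 months and 0 CPM in both remaining 21-month libraries). Whether replicate numbers mark the same mouse across regions is not stated, and the correlations did not settle it. Between ages, which are different mice, deviations from group means correlated at 0.0292 on average for the same number. No region had every such correlation above 0.1. Between regions of 1 age the averages were 0.0360 at 3 months and 0.00401 at 21 months, and of the 21 pairs of regions at each age only corpus and cauda at 3 months had every correlation above 0.1 (lowest 0.121, average 0.166). Between caput and corpus at 3 months the average was 0.233 for the same number and -0.0811 for other numbers. Between corpus and cauda at 21 months these were 0.156 and -0.0545. Some pairs of regions went the other way, the furthest being efferent ductules and initial segment at 3 months (-0.163 and 0.0525). For corpus and cauda at 3 months 5 members differed without the block and 5 with it. With the replicate block, 6 members rose and 3 fell with age (Cldn10 in the efferent ductules was no longer called and Cldn2 in the vas deferens was), 14 other junction genes were called, 3 and 4 members were region-specific at 3 and 21 months, 168 differences between region pairs were found, and 7 members had an interaction.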
